A study of Mus musculus with 4 samples.

Results

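Oxidative phosphorylation is the mitochondrial process in which electrons pass along complexes I to IV of the respiratory chain and the resulting proton gradient drives the ATP synthase, complex V. Its subunits come from both genomes of the cell. The circular mitochondrial genome encodes core subunits of complexes I, III, IV and V and is copied into long polycistronic transcripts that are cut at tRNAs, while every subunit of complex II and most subunits of the other complexes are made from nuclear genes, translated in the cytosol and imported. In the intestinal epithelium the demand for respiration differs between stem cells, Paneth cells and absorptive cells, so the balance of the genomes is of interest in crypt cultures.

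The genes described here were chosen by symbol: the protein-coding mt-Nd, mt-Co, mt-Atp and mt-Cytb genes of the mitochondrial genome, and the nuclear genes named Ndufa, b, c, s or v with a number, Cox4 to Cox8, Uqcr, Atp5 or Sdha to Sdhd, without pseudogenes named -ps. This gave 102 of 30284 genes, 13 of them mitochondrial and 89 nuclear. The symbols came from the GENCODE M21 annotation of the mouse genome build GRCm38. Of the 89 nuclear genes 4 (Cox6c2, Ndufa11b, Ndufb4c and Ndufs6b) are annotated as processed pseudogenes, and the symbol Atp5o stands for 2 gene entries. The name rule also takes Atp5s and Cox7a2l, which are known as an ATP synthase coupling factor and a factor of respiratory supercomplexes, and it does not take Ndufab1, the acyl carrier subunit of complex I. Of the 102 genes, 95 passed the filter on low counts and were tested, all 13 mitochondrial ones and 82 nuclear ones.

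Poly-A RNA came from small-intestinal organoids, epithelial cultures grown in Matrigel from crypts of 2 male C57BL/6J mice. The labels give 9 weeks as their age, under a tag made for a colitis experiment that is not part of these cultures. For 6 h the crypts received either 2 µM GW3965, a compound that activates the liver X receptors (LXR), or its vehicle DMSO, and material from both animals went into both treatments, so that the GW3965 group and the DMSO group each held 2 libraries, 1 per mouse. The labels name no genetic alteration. The question the design puts to these genes is whether 6 h of LXR activation changes the RNA of the respiratory chain, and whether both genomes change alike.

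The libraries held 16572359 to 19486547 estimated counts. The treatment was visible in the cholesterol exporter gene Abcg1, at 25.7 and 28.7 CPM (counts after scaling for library size) in the GW3965 libraries of mouse 1 and mouse 2, against 1.39 and 1.27 CPM in the DMSO libraries. Epithelial markers were abundant: the 7 listed (Epcam, Vil1, Cdh1, Krt8, Krt18, Krt19 and Cldn7) summed to 22255 and 31536 CPM with GW3965, and to 29712 and 30175 CPM with DMSO. The GW3965 library of mouse 1 stood apart. Its chi-square per degree of freedom against the other 3 libraries was 51 to 77.6, while it was 10.5 to 21.8 among those 3. That library also had the highest level of leukocyte markers: 14 listed genes, among them Ptprc and Cd3e, summed to 242 and 97.6 CPM in the GW3965 libraries of mouse 1 and mouse 2, against 119 and 120 CPM in the DMSO libraries. All 14 were higher with GW3965 in mouse 1 and 2 of 14 in mouse 2. The 7 epithelial markers were all lower with GW3965 in mouse 1, and 4 of the 7 were higher in mouse 2. The 7 listed markers of mesenchyme and endothelium summed to 43.8 and 37.7 CPM with GW3965, and to 30.9 and 34.9 CPM with DMSO, and Pecam1 among them had the smallest p (log2 fold change 0.63 ± 0.24, edgeR adjusted p = 0.9999, with log2 differences of 0.95 in mouse 1 and 0.25 in mouse 2). Values are therefore given by library or by mouse for the genes named, and the part that other cells or RNA quality had in them was not tested. Since these are bulk samples, fewer cells of a type and less RNA per cell cannot be told apart.

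Transcripts of the mitochondrial genome held far more of each library than those of the nuclear genes. The 13 mitochondrial genes took 14.01% of the gene counts in the GW3965 library of mouse 1 (95% Wilson interval 13.995 to 14.029) and 8.74% in that of mouse 2 (8.72 to 8.75). In the DMSO libraries they took 7.60% in mouse 1 (7.59 to 7.61) and 9.43% in mouse 2 (9.41 to 9.44). These intervals cover counting error only. The mean share was 11.4% ± 3.73 with GW3965 and 8.51% ± 1.29 with DMSO (SD, n = 2 each), and the difference of 2.86 percentage points was smaller than the spread of the GW3965 libraries (two-sided exact permutation test, p = 0.667; 2 libraries against 2 cannot go below 0.333). Within a mouse the difference was 6.41 points in mouse 1 and -0.689 points in mouse 2. Leaving out the GW3965 library of mouse 1 gave a difference of the means of 0.225 points, and leaving out that of mouse 2 gave 5.50 points.

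The 89 nuclear genes together took 1.84% of the gene counts in the GW3965 library of mouse 1 and 1.51% in that of mouse 2, against 1.67% and 1.68% in the DMSO libraries of the same mice. The DMSO libraries were nearly equal and the GW3965 libraries lay on either side of them. In mouse 1 both genomes were therefore higher with GW3965, and in mouse 2 both were lower.

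Setting the summed counts of the 13 mitochondrial genes over those of the nuclear genes removes the scaling between libraries. This ratio was 7.63 and 5.77 in the GW3965 libraries of mouse 1 and mouse 2, and 4.56 and 5.62 in the DMSO libraries. Both GW3965 values lay above both DMSO values, but the value of mouse 2 with GW3965 exceeded its own DMSO value by only 0.04 on the log2 scale, against 0.74 in mouse 1. The mean log2 ratio was 2.73 ± 0.28 with GW3965 and 2.34 ± 0.21 with DMSO (SD, n = 2 each). The difference was 0.39 (two-sided exact permutation test without pairing, p = 0.333, the smallest that 2 libraries against 2 can give). With libraries paired by mouse, a two-sided exact sign-flip test gave p = 0.5, the smallest that 2 pairs can give. Leaving out the GW3965 library of mouse 1 gave a difference of 0.19, that of mouse 2 gave 0.59, and the DMSO library of mouse 1 gave 0.24. From deposited TPM (a level that takes transcript length into account) the ratio was 5.21 and 4.42 with GW3965, and 3.48 and 4.13 with DMSO.

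**Figure D1:**
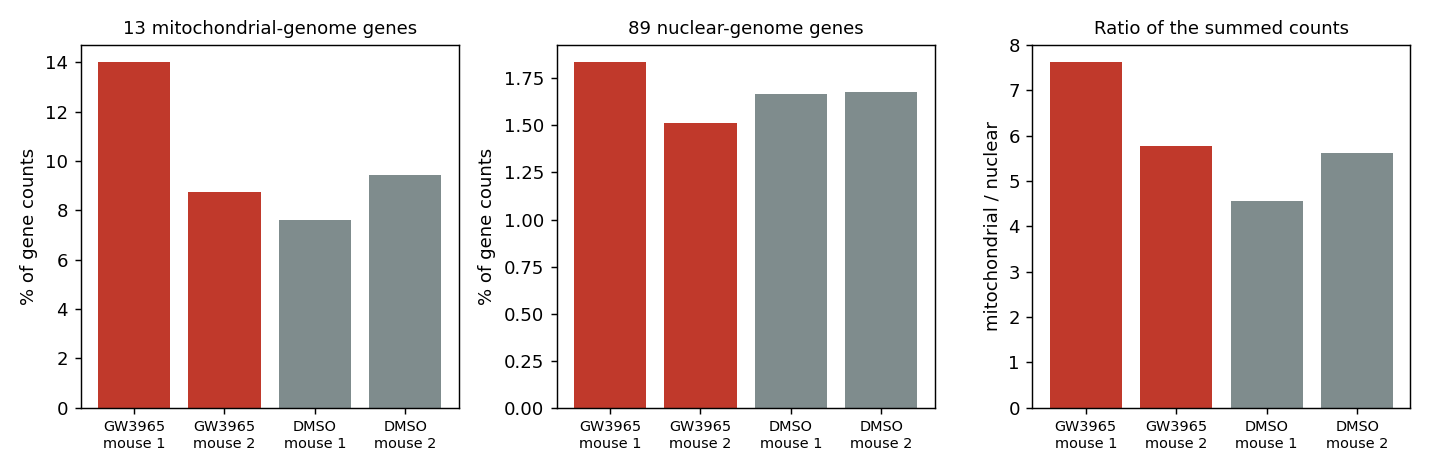
Percent of gene counts held by the 13 mitochondrial-genome genes (left) and the 89 nuclear-genome genes (middle), and the ratio of their summed counts (right), 1 bar per library, GW3965 in red and DMSO in grey. The mitochondrial share of 14.01% in the GW3965 library of mouse 1 is the highest bar on the left, and the nuclear share runs from 1.51% to 1.84%.

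By the quasi-likelihood test of edgeR, with p-values adjusted over 13602 genes by Benjamini and Hochberg's method, 0 of the 95 tested genes of oxidative phosphorylation passed an adjusted p of 0.05, where 0.0588% of all genes tested did (8 genes). At an unadjusted p under 0.05 there was 1 of 95 (Ndufa11b), and the share over all genes was 1.05%. DESeq2, which gave a p to 98 of these genes, called 0 of them and 0.0959% of all genes, with 2 of the 98 and 0.595% of all genes at an unadjusted p under 0.05. With the mouse as a block edgeR called 0 of the 95 and 0.353% of all genes (48 genes), with 2 of the 95 (mt-Atp8 and Ndufa11b) and 1.7% of all genes at an unadjusted p under 0.05. The absence of a call sets only a loose limit, since the standard errors of the 95 log2 fold changes ran from 0.18 to 0.76. The fit without the GW3965 library of mouse 2, which takes the spread of the DMSO pair for the lone library, called mt-Atp8 (log2 fold change 0.99) and Ndufb4c (0.75) with an adjusted p of 0.041 for each, and it called 84 of 14114 genes (0.595%).

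The direction differed between the mice for most of these genes. Of the 95, 72 (75.8%) were higher with GW3965 in mouse 1 and lower in mouse 2, a pattern shown by 33.6% of all genes tested, and 5 (5.26%) had the opposite pattern, against 32.9% of all genes tested. Another 13 (13.7%) were lower in both mice, where the share over all genes was 17.1%, and 5 (5.26%) were higher in both, where it was 16.4%. Direction also went with transcript length in other genes of similar or higher level, in a split made after the data had been seen. Of 248 such genes under 700 bases, 85.5% were higher in mouse 1 and 87.1% were lower in mouse 2. These shares were 71.2% and 89.3% for 577 genes of 700 to 1200 bases, and 31.3% and 39.9% for 5498 longer ones. Both GW3965 libraries lay above both DMSO libraries for 4 of 95 genes (4.21%; 9.28% of all genes) and below them for 10 (10.5%; 9.18% of all genes). With 1 library per mouse and treatment, the difference between the mice could not be tested.

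The 13 mitochondrial genes had nearly the same differences. With GW3965 they were 1.74-fold to 2.28-fold higher in mouse 1 and between 0.892-fold and 1.02-fold in mouse 2. On the log2 scale the median was 0.92 in mouse 1 and -0.09 in mouse 2, and over all tested genes it was 0.00 in both. The fitted log2 fold changes ran from 0.34 to 0.62 with a median of 0.43, all positive, and their standard errors were 0.27 to 0.32. With the GW3965 library of mouse 1 left out the median was 0.08, with that of mouse 2 left out 0.74, and with the DMSO library of mouse 1 left out 0.25. The DMSO libraries already differed from each other. All 13 genes were lower in the DMSO library of mouse 1 than in that of mouse 2, by 0.38 at the median on the log2 scale, and all 13 were higher in the GW3965 library of mouse 1 than in that of mouse 2, by 0.65.

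Complex IV, cytochrome c oxidase, passes electrons to oxygen, and its 3 mitochondrial genes encode the catalytic core. mt-Co1, on the plus strand of the mitochondrial genome at 5328 to 6872, was at 32868 and 21017 CPM in the GW3965 libraries of mouse 1 and mouse 2, against 17554 and 23431 CPM in the DMSO libraries (log2 fold change 0.39 ± 0.32, SE; edgeR adjusted p = 0.9999). The DMSO library of mouse 2 lay above the GW3965 library of mouse 2, so the groups overlapped. mt-Co2 (7013 to 7696) was at 19826 and 12159 CPM with GW3965, and at 9932 and 13105 CPM with DMSO (0.47 ± 0.32). mt-Co3 (8607 to 9390) was at 16870 and 10523 CPM with GW3965, and at 8920 and 11176 CPM with DMSO (0.45 ± 0.31). Per length mt-Co2 was the highest of all genes in the files, with a mean of 27490 TPM over the 4 libraries.

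Complex III carries electrons from ubiquinol to cytochrome c, and mt-Cytb, cytochrome b, is its mitochondrial subunit. mt-Cytb (14145 to 15288) was at 17895 and 11007 CPM in the GW3965 libraries of mouse 1 and mouse 2, and at 9201 and 12191 CPM in the DMSO libraries (0.43 ± 0.32). The GW3965 library of mouse 1 was again the highest and the DMSO library of mouse 1 the lowest.

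Complex I oxidises NADH, and its mitochondrial subunits form part of the membrane arm that pumps protons. mt-Nd1 (2751 to 3707) was at 11704 and 7383 CPM with GW3965 and at 6118 and 7899 CPM with DMSO, and mt-Nd4 (10167 to 11544) at 11883 and 7586 CPM with GW3965 and at 6276 and 7962 CPM with DMSO. mt-Nd2 was at 6225 and 4177 CPM with GW3965 and at 3356 and 4366 CPM with DMSO, and mt-Nd5 at 5653 and 3792 CPM with GW3965 and at 3133 and 4211 CPM with DMSO. For each of these 4 genes the order of the libraries was that of mt-Co1. mt-Nd3 (9459 to 9806) was the only one of the 13 whose groups did not overlap, with 1692 and 1298 CPM in the GW3965 libraries and 968 and 1276 CPM in the DMSO libraries (0.41 ± 0.27), and the libraries of mouse 2 differed by 0.02 on the log2 scale. mt-Nd4l was at 1428 and 922 CPM with GW3965 and at 821 and 1033 CPM with DMSO.

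mt-Nd6 (13552 to 14070) is the only protein-coding gene on the minus strand of the mitochondrial genome, and in human cells its mRNA is known to lack the poly-A tail of the others. In these poly-A libraries its entry held 1095 and 838 CPM with GW3965, and 591 and 866 CPM with DMSO (0.41 ± 0.28). The use of strand in counting is not named in the sources used here. Reads from RNA of the opposite strand may therefore be among these counts, which was not tested. The counts of mt-Nd6 were 19.4% and 22.1% of those of its neighbour mt-Nd5 in the GW3965 libraries, and 18.9% and 20.6% in the DMSO libraries. These shares do not take length into account, and the mean TPM over all libraries were 2529 for mt-Nd6 and 2583 for mt-Nd5. In both treatments the share was lower in mouse 1 than in mouse 2, and the groups overlapped.

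Complex V holds 2 mitochondrial subunits, mt-Atp6 and mt-Atp8, whose genes overlap. mt-Atp6 (7927 to 8607) was at 12971 and 7934 CPM in the GW3965 libraries of mouse 1 and mouse 2, against 6721 and 8467 CPM in the DMSO libraries (0.46 ± 0.31). mt-Atp8 (7766 to 7969) was at 127 and 69.4 CPM with GW3965, and at 55.7 and 72.0 CPM with DMSO (0.62 ± 0.28; edgeR unadjusted p = 0.0536 and adjusted p = 0.9999, and with the mouse as a block 0.0261 and 0.9999). Per kilobase of full length mt-Atp6 had 30.6 and 34.3 times the CPM of mt-Atp8 in the GW3965 libraries, and 36.2 and 35.2 times in the DMSO libraries. In deposited TPM the genes were closer. mt-Atp6 was at 23642 and 17136 TPM with GW3965, and at 14518 and 17290 TPM with DMSO. mt-Atp8 was at 3975 and 2572 TPM with GW3965, and at 2065 and 2523 TPM with DMSO. The distance between the 2 genes thus depends on the length used. mt-Atp8 is 204 bases long and was given an effective length of 29.2 bases in the deposited files, which take 179 bases from the length of long transcripts. Its TPM rests on that estimate and is not ranked among the 13. The overlap is printed here because reads that lie in it fit both genes; the capitals mark the start codon of mt-Atp6, and the run ends with the stop codon of mt-Atp8. In mt-Nd4l and mt-Nd4, the capitals mark the 7 bases that both genes share. Sequences are GENCODE M21 transcripts on the plus strand of GRCm38, at chrM:7927-7969 and chrM:10152-10188.
mt-Atp8 and mt-Atp6: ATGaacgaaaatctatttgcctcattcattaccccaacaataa
mt-Nd4l and mt-Nd4: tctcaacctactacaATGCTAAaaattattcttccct

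Copies of mitochondrial DNA in the nuclear genome can also take reads. On chromosome 1, 7 genes shared at least 50% of their 31-base words with mitochondrial transcripts, and mt-Co2 shared 100% of its own with other genes. The 7 copies held counts equal to 0.315% and 0.839% of those of the 13 genes in the GW3965 libraries of mouse 1 and mouse 2, and 0.139% and 0.415% in the DMSO libraries. Adding them to the mitochondrial side left the log2 ratio of the genomes at a difference of 0.40.

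**Figure D2:**
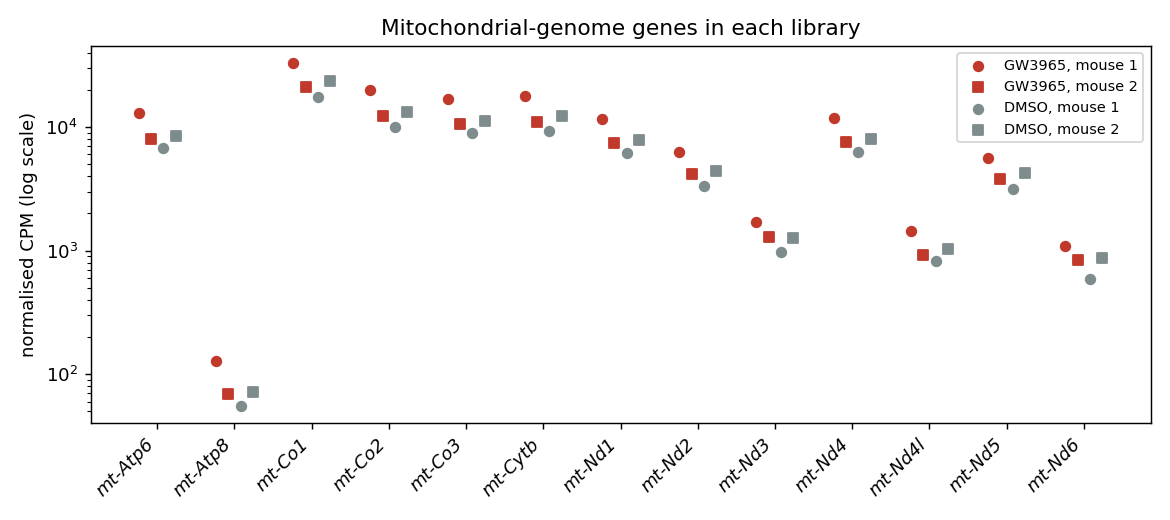
Normalised CPM (log scale) of the 13 mitochondrial-genome genes in each library, in order of their symbols; circles are mouse 1, squares mouse 2, GW3965 is red and DMSO grey. In each gene the GW3965 library of mouse 1 is the highest and the DMSO library of mouse 1 the lowest point; CPM do not take length into account, so heights compare libraries within a gene.

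The nuclear genes had a median log2 difference of 0.33 in mouse 1 and -0.19 in mouse 2, over 82 tested genes. The median fitted log2 fold change was 0.09, with 55 positive and 27 negative. The sign of that median depended on 1 library: leaving out the GW3965 library of mouse 1 gave -0.13, that of mouse 2 gave 0.28, and the DMSO library of mouse 1 gave 0.03. Without the annotated pseudogenes, 62 of 80 were higher with GW3965 in mouse 1 and 72 of 80 were lower in mouse 2. In mouse 1 the log2 differences of these 80 ran from -0.72 to 0.92, and 4 of them reached the lowest value of the mitochondrial genes. Per length the mitochondrial genes stood far above the nuclear ones, with a median of 9016 TPM over the 13 against 262 TPM over the 82 tested nuclear genes. The median of the 13, mt-Atp8 included, falls on mt-Nd4l. That gene is 297 bases long with an effective length of 118 bases, so the value also rests on the length correction. The highest nuclear gene, Atp5b at 2038 TPM, was below mt-Nd6 at 2529 TPM, the lowest mitochondrial gene when mt-Atp8 is left unranked. Per kilobase of full length mt-Atp8 had 273 CPM (DMSO, mouse 1) to 623 CPM (GW3965, mouse 1), so its place depends on the length used.

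**Figure D3:**
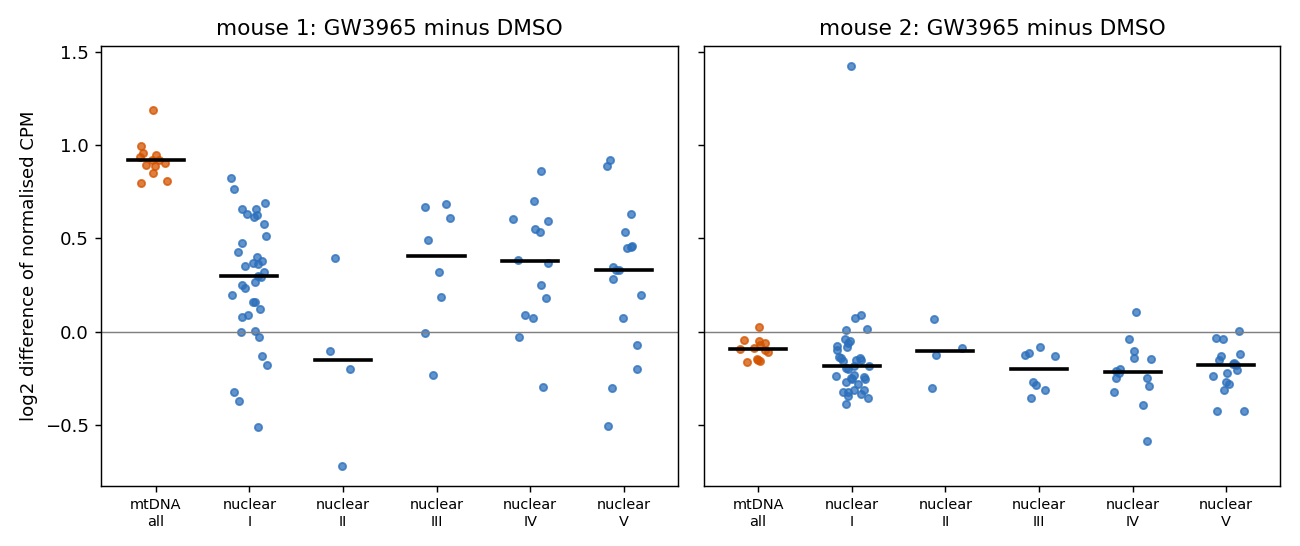
Log2 difference of normalised CPM, GW3965 minus DMSO, in mouse 1 (left) and mouse 2 (right), for tested protein-coding genes; each point is 1 gene, bars are medians, orange is the mitochondrial genome and blue the nuclear genes of complexes I to V. In mouse 1 the mitochondrial genes form a tight group around 0.92 and complex II has a median below 0, and in mouse 2 all medians lie a little below 0.

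Complex II, succinate dehydrogenase, is also an enzyme of the tricarboxylic acid cycle and has no mitochondrial-genome subunit. Its 4 genes had a median log2 difference of -0.15 in mouse 1, where the medians of the nuclear genes of complexes I, III, IV and V were 0.32, 0.40, 0.38 and 0.33, and of -0.11 in mouse 2, where those were -0.18, -0.20, -0.22 and -0.18. Sdha, the flavoprotein that oxidises succinate (chromosome 13, 74322254 to 74350280, minus strand), was at 209 and 353 CPM in the GW3965 libraries of mouse 1 and mouse 2, against 344 and 336 CPM in the DMSO libraries (log2 fold change -0.28 ± 0.28; edgeR adjusted p = 0.9999). The library of mouse 1 with GW3965 was low and the other 3 were alike. Sdhb, the iron-sulphur subunit, was at 143 and 148 CPM with GW3965 and at 154 and 158 CPM with DMSO, and Sdhc, a membrane anchor, at 109 and 117 CPM with GW3965 and at 126 and 128 CPM with DMSO. In both the GW3965 libraries lay below the DMSO libraries. Sdhd, the other anchor, was at 223 and 145 CPM with GW3965 and at 170 and 179 CPM with DMSO, with the GW3965 libraries on either side.

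Of the 39 nuclear genes of complex I that were tested, 26 had a positive and 13 a negative log2 fold change, and 29 were higher in mouse 1 and lower in mouse 2. Ndufa4, the most abundant of this naming group per length at 935 TPM, is now counted as a subunit of complex IV; it was at 415 and 221 CPM in the GW3965 libraries of mouse 1 and mouse 2, against 235 and 289 CPM in the DMSO libraries (0.28 ± 0.31). Ndufa3, an accessory subunit, followed at 521 TPM, with 97.9 and 83.2 CPM with GW3965 and 82.4 and 95.2 CPM with DMSO. Ndufs1, the largest iron-sulphur subunit, was at 72.4 and 86.6 CPM with GW3965, against 93.8 and 82.5 CPM with DMSO. Ndufv1, which binds NADH, was at 106 and 126 CPM with GW3965, against 133 and 132 CPM with DMSO (-0.19 ± 0.21), so that both GW3965 libraries were below both DMSO libraries. Ndufs1 and Ndufv1 were named after their values were seen.

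Of the 8 nuclear genes of complex III, 6 were higher with GW3965 in mouse 1 and lower in mouse 2. Uqcrq, a small membrane subunit and the most abundant per length at 1849 TPM, was at 535 and 322 CPM with GW3965, and at 333 and 400 CPM with DMSO (0.23 ± 0.29). Uqcrh, the hinge protein, was at 286 and 173 CPM with GW3965, and at 180 and 211 CPM with DMSO. Uqcrfs1, the Rieske iron-sulphur protein and the lowest per length at 183 TPM, was at 212 and 200.3 CPM with GW3965, and at 214 and 219 CPM with DMSO (-0.07 ± 0.21). Its GW3965 libraries lay just below its DMSO libraries.

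In complex V, 13 of 17 tested nuclear genes were higher in mouse 1 and lower in mouse 2. Atp5e, the epsilon subunit of the rotor, was at 405 and 193 CPM in the GW3965 libraries of mouse 1 and mouse 2, against 214 and 259 CPM in the DMSO libraries (0.34 ± 0.33). Atp5l, subunit g of the membrane part, was at 269 and 133 CPM with GW3965, and at 145 and 165 CPM with DMSO (0.37 ± 0.31). Atp5mpl, a small membrane protein of the complex, was at 211 and 140 CPM with GW3965, and at 136 and 152 CPM with DMSO (0.28 ± 0.25). In all 3 the GW3965 library of mouse 1 was the highest of the 4. The alpha and beta subunits, which form the catalytic head, were lowest in that library. Atp5b, the beta subunit, was at 1849 and 2151 CPM with GW3965, and at 2278 and 2201 CPM with DMSO (-0.16 ± 0.25), and Atp5a1, the alpha subunit, was at 992 and 1371 CPM with GW3965, and at 1409 and 1369 CPM with DMSO (-0.23 ± 0.26). Atp5s was low, at 9.32 and 4.72 CPM with GW3965, and at 6.83 and 6.36 CPM with DMSO.

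The genes of the nuclear genome that were lower in mouse 1 tended to be those with long mRNAs. This split by transcript length, weighted by the counts of each transcript, was made after the data had been seen. In mouse 1 the median log2 difference, GW3965 minus DMSO, was 0.46 for 37 genes under 700 bases, of which 34 were higher, 0.27 for 25 genes of 700 to 1200 bases, of which 20 were higher, and -0.07 for 18 genes of 1200 bases or more, of which 8 were higher. In mouse 2 the medians were -0.24, -0.18 and -0.10 in the same classes. Over these 80 genes length and log2 difference had a Spearman's rho of -0.52 in mouse 1 and of 0.33 in mouse 2, as a description across genes that share their libraries. Other genes showed the same order. In mouse 1 the medians of the other tested genes were 0.34 under 700 bases (621 genes), 0.23 for 700 to 1200 bases (1340 genes) and -0.04 for longer ones (11546 genes), and in mouse 2 they were -0.20, -0.13 and 0.02.

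The mitochondrial genes did not follow length. Their median log2 difference in mouse 1 was 0.92 for 6 genes under 700 bases, 0.93 for 4 genes of 700 to 1200 bases and 0.90 for 3 longer ones. The cytosolic ribosomal protein genes, another set of short and abundant mRNAs, had medians of 0.34 in mouse 1 and -0.21 in mouse 2 over 87 tested genes. These lay close to the 0.33 and -0.19 of the nuclear genes of oxidative phosphorylation, and the difference between these sets was not tested. Of the 87 genes, 0 passed an adjusted p of 0.05 in edgeR's test, where 0.0588% of all genes tested did.

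**Figure D4:**
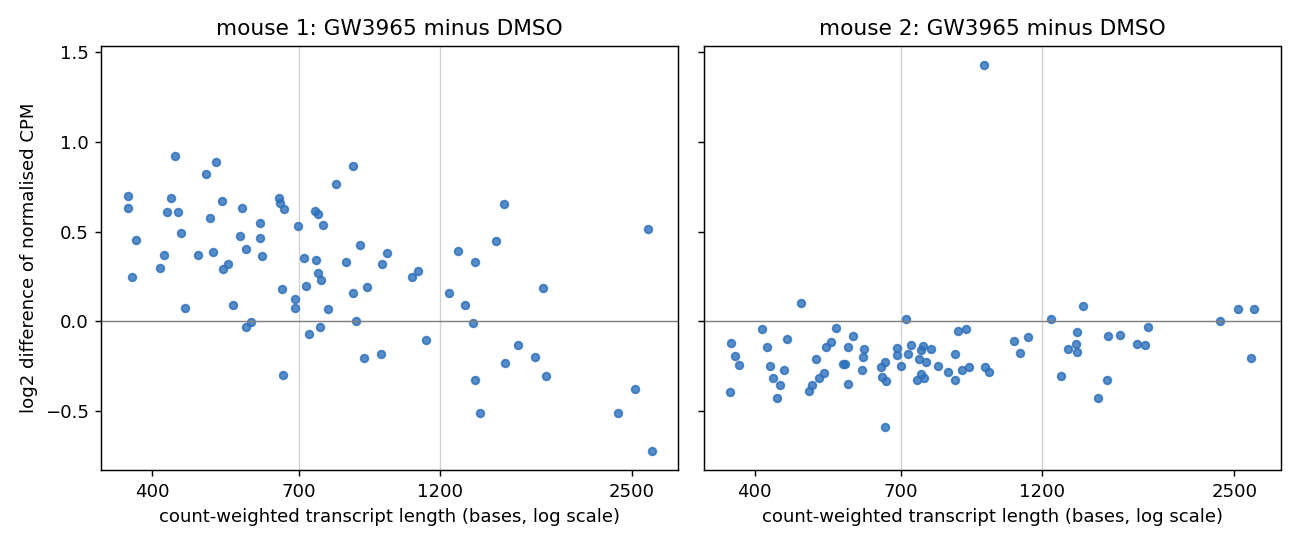
Log2 difference of normalised CPM, GW3965 minus DMSO, against transcript length in bases (log scale) for the 80 tested protein-coding nuclear genes in mouse 1 (left) and mouse 2 (right); each point is 1 gene, and grey lines mark 700 and 1200 bases. In mouse 1 the points fall with length, from a median of 0.46 in the shortest class to -0.07 in the longest, and in mouse 2 nearly all lie below 0.

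Several subunits of complexes IV and V are encoded by paralogs with different tissue use. Cox4i1, the common form of the largest nuclear subunit, was at 1928 and 1443 TPM in the GW3965 libraries of mouse 1 and mouse 2, against 1587 and 1706 TPM in the DMSO libraries, and its hypoxia- and lung-associated paralog Cox4i2 had 3 and 0 counts with GW3965, and 1 and 1 with DMSO. Cox6a1 was at 1675 and 1856 TPM with GW3965 and at 2028 and 1933 TPM with DMSO, and the muscle form Cox6a2 at 1.98 and 2.61 TPM with GW3965 and at 2.91 and 3.74 TPM with DMSO. For Cox6a2 the log2 fold change was -0.46 ± 0.44 from 17 to 33 counts per library. Cox6b1 held 99.3% to 99.5% of the TPM of its pair in the 4 libraries, and the testis form Cox6b2 the rest. Cox8b, Cox8c and Cox7b2 had 0 counts in all 4 libraries, where 3 counts correspond to 0.154 to 0.183 CPM, while Cox8a was at 562 and 668 TPM with GW3965 and at 626 and 648 TPM with DMSO, and Cox7b at 703 and 464 TPM with GW3965 and at 457 and 555 TPM with DMSO. Ndufa4l2, the hypoxia-induced paralog of Ndufa4, had 14 and 9 counts with GW3965, and 19 and 3 with DMSO.

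In the COX7A family no form held most of the TPM in every library. Cox7a1, known as the heart and skeletal muscle form (chromosome 7, 30184144 to 30186078, plus strand), was at 245 and 227 TPM in the GW3965 libraries of mouse 1 and mouse 2, against 179 and 282 TPM in the DMSO libraries. Its partner Cox7a2, the widely expressed form, was at 413 and 304 TPM with GW3965, and at 324 and 353 TPM with DMSO. Cox7a2l was at 106 and 112 TPM with GW3965, and at 106 and 114 TPM with DMSO. Cox7a1 thus held 32.1% and 35.3% of the TPM of the family with GW3965, and 29.4% and 37.7% with DMSO. The groups of Cox7a1 overlapped (log2 fold change 0.12 ± 0.25). Muscle genes were near 0 in the same libraries. Myh7, a heart and slow-muscle myosin, was at 0.305 and 0.210 CPM with GW3965 and at 0.103 and 0.265 CPM with DMSO, and the 6 listed muscle markers summed to 9.02 and 5.61 CPM with GW3965 and to 5.29 and 7.37 CPM with DMSO, most of it Tnnt2, with Myl2 at 0 counts in all 4.

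The c subunit of the ATP synthase, which forms the rotating ring in the membrane, is made from 3 nuclear genes that encode the same mature protein with different import sequences. Atp5g3 was at 899 and 868 TPM in the GW3965 libraries of mouse 1 and mouse 2, against 932 and 930 TPM in the DMSO libraries. Atp5g1 was at 539 and 569 TPM with GW3965, against 612 and 597 TPM with DMSO, and Atp5g2 at 190 and 190 TPM with GW3965, against 239 and 197 TPM with DMSO. The order Atp5g3, Atp5g1, Atp5g2 held in each library, and Atp5g3 supplied 52.2% to 55.2% of the sum. In CPM the log2 fold changes were 0.02 ± 0.24, -0.04 ± 0.22 and -0.10 ± 0.21 in that order.

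**Figure D5:**
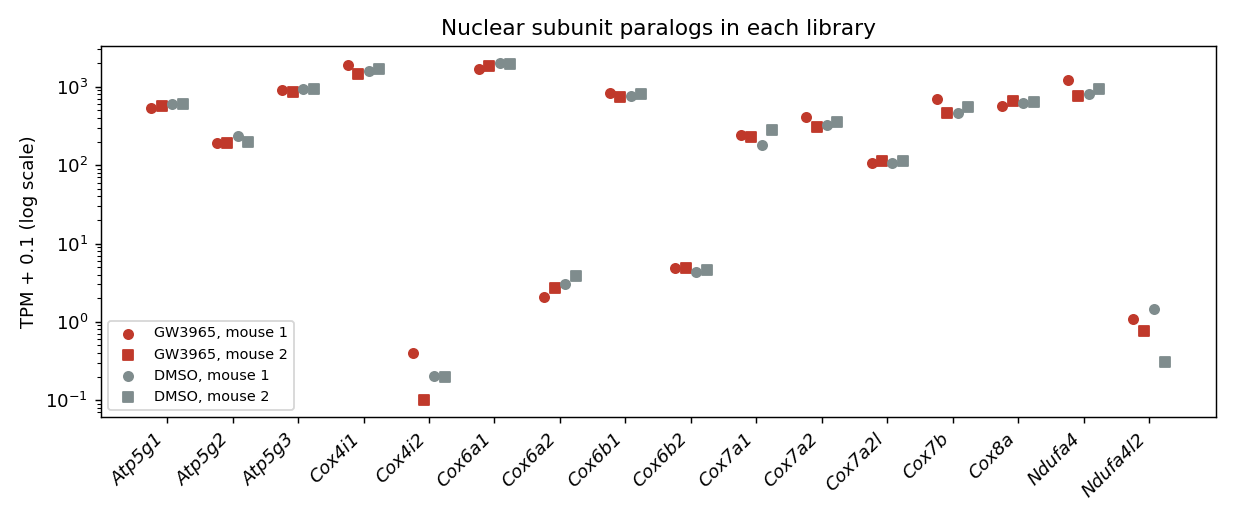
TPM + 0.1 (log scale) of nuclear subunit paralogs in each library; circles are mouse 1, squares mouse 2, GW3965 is red and DMSO grey, and Cox7b2, Cox8b and Cox8c, at 0 counts in every library, are left out. Cox4i2, Cox6a2, Cox6b2 and Ndufa4l2 lie below 5 TPM, and Cox7a1, at 179 to 282 TPM, lies close to Cox7a2.

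Gene copies limit what can be said of a few members. Ndufa11b, a processed pseudogene on chromosome 16 (22053510 to 22053933), had the smallest unadjusted p of the 95 (0.0223) and the largest log2 fold change (1.63 ± 0.60, edgeR adjusted p = 0.9999). It was at 1.71 and 1.42 CPM with GW3965, against 0.205 and 0.795 CPM with DMSO, and shared 26.6% of its 31-base words with other genes, most with Ndufa11. Ndufb4c, on chromosome 15, shared 100% of its words with Ndufb4, and was given 1.80 and 1.60 times the counts of Ndufb4 in the GW3965 libraries and 1.81 and 1.61 times in the DMSO libraries. Ndufb4 shared 31.6% of its own words with other genes, so only reads in that shared stretch fit both. Ndufb4 was at 37.9 and 21.5 CPM with GW3965 and at 22.3 and 25.5 CPM with DMSO. The 7 genes that did not pass the filter were Cox4i2, Cox6c2, Cox7b2, Cox8b, Cox8c, Ndufs6b and the second Atp5o entry. Ndufs6b had 0 counts in all 4 libraries, and Cox6c2 had 0 in both GW3965 libraries and in the DMSO library of mouse 2 and 1.72 in that of mouse 1. The second Atp5o entry had 0 counts in both GW3965 libraries and 8.81 and 4.53 in the DMSO libraries and shared 94% of its words with other genes.

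Promoters of the nuclear genes were searched for motifs of factors known to drive respiratory genes: NRF1 (GCGCA followed by its reverse complement), the ETS family to which GABPA belongs (CCGGAAGT), YY1 (AAGATGGCG) and Sp1 (GGGCGGGG), on both strands. RefSeq promoters (GRCm38.p6, 250 bases before to 50 after the start) were found for 66 of 88 symbols, 71 windows in all. NRF1 was found in 5 of the 71 (7.04%; 0.971% of all 32851 promoters), ETS in 5 (7.04%; 3.89% of all), YY1 in 7 (9.86%; 1.40% of all) and Sp1 in 11 (15.5%; 17.6% of all). The LXR motif, AGGTCA repeated after a gap of 4 bases, was in 0 of the 71 and in 5 of all promoters. A match is only a run of letters, and no match says only that these letters are not in this window. The promoters printed here stand for the NRF1, ETS and YY1 matches, which are in capitals; the NRF1 match of Cox6a1 begins 162 bases before the start, those of Cox8a, which read as the reverse complement, begin 6 bases before and at base 32, and that of Ndufs6 begins at base 34. All are on the minus strand, at chr5:115348909-115349208 for Cox6a1, chr19:7217567-7217866 for Cox8a and chr13:73328433-73328732 for Ndufs6.
Cox6a1: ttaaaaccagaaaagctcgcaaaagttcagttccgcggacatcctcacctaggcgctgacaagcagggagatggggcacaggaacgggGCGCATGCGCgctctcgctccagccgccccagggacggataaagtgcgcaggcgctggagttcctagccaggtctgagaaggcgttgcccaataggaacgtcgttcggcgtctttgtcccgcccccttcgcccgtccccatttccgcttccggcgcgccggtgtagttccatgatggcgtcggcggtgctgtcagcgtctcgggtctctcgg
Cox8a: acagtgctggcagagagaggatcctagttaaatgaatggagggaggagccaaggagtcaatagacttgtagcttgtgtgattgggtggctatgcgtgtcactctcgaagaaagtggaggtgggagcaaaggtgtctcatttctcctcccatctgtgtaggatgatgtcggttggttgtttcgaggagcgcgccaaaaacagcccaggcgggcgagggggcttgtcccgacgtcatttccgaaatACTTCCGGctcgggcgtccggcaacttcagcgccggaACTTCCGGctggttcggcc
Ndufs6: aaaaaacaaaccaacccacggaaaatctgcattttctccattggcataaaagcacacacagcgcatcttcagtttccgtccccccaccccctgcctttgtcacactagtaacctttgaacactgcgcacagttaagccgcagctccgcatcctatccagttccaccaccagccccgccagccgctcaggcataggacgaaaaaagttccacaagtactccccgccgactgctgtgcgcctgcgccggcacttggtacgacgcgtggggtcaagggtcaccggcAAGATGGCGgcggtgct
Among these, Cox6a1 had a log2 fold change of -0.08 ± 0.23, Cox8a of 0.02 ± 0.22 and Ndufs6 of 0.24 ± 0.26 with GW3965. Their log2 differences were -0.03 for Cox6a1, 0.09 for Cox8a and 0.63 for Ndufs6 in mouse 1, and -0.14, -0.04 and -0.24 in mouse 2.

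Other genes of the pathway showed no call either. In edgeR's test 0 of 47 assembly factors, 0 of 27 genes of mitochondrial DNA and RNA, 0 of 9 biogenesis regulators, 0 of 17 genes of the tricarboxylic acid cycle, 0 of 16 mobile carriers and 0 of 78 mitochondrial ribosomal protein genes passed, in either direction, at an adjusted p of 0.05, where 0.0588% of all genes tested did. The count at an unadjusted p under 0.05 was 0 in each list, where the share over all genes was 1.05%. With the mouse as a block 0 passed the adjusted p, against 0.353% of all genes. At such shares, lists of this size would be likely to hold few calls or none. The median log2 fold changes were 0.06, 0.03, -0.03, -0.17, -0.06 and 0.01 in that order, and 0.00 over all genes. The tricarboxylic acid cycle differed in direction from the nuclear subunits in mouse 1: 2 of its 17 genes were higher there, with a median of -0.36, and the median in mouse 2 was 0.00. Its 17 mRNAs had a median length of 2241 bases, and the part of length in this direction was not tested. Assembly factors had medians of 0.17 in mouse 1 and -0.09 in mouse 2, and mitochondrial ribosomal proteins 0.16 and -0.16. Genes of mitochondrial DNA and RNA had medians of 0.04 in mouse 1 and -0.06 in mouse 2, biogenesis regulators -0.06 and 0.02, and mobile carriers 0.02 and -0.11.

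Among the regulators, Ppargc1a, the coactivator that drives mitochondrial biogenesis, was at 6.94 and 9.23 CPM in the GW3965 libraries of mouse 1 and mouse 2, against 12.6 and 8.96 CPM in the DMSO libraries (-0.41 ± 0.27), and its relative Ppargc1b at 13.6 and 10.1 CPM with GW3965, against 12.4 and 8.17 CPM with DMSO (0.20 ± 0.27). Tfam, which packages mitochondrial DNA and takes part in its transcription, was at 32.0 and 29.1 CPM with GW3965, and at 34.5 and 30.3 CPM with DMSO (-0.09 ± 0.19). Tfam was named after its values were seen. Polg2, the accessory subunit of the mitochondrial DNA polymerase, was at 8.04 and 5.72 CPM with GW3965, and at 4.37 and 6.04 CPM with DMSO (0.40 ± 0.30). Fastk, a kinase-like gene of mitochondrial RNA handling, was at 97.6 and 64.7 CPM with GW3965, and at 66.5 and 66.4 CPM with DMSO (0.29 ± 0.23). For Polg2 and Fastk the GW3965 library of mouse 1 was the highest of the 4, as for the mitochondrial genes.

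The other genes named from these lists were those with the smallest p. Dlat, a subunit of pyruvate dehydrogenase, was at 45.4 and 63.9 CPM in the GW3965 libraries of mouse 1 and mouse 2, against 74.3 and 57.5 CPM in the DMSO libraries (log2 fold change -0.27 ± 0.22). Idh2, a mitochondrial isocitrate dehydrogenase, was at 44.5 and 56.5 CPM with GW3965, against 58.5 and 58.9 CPM with DMSO (-0.22 ± 0.19). Ucp2, an inner-membrane carrier, was at 249 and 294 CPM with GW3965, against 389 and 290.0 CPM with DMSO (-0.32 ± 0.25). Dlat and Ucp2 had opposite directions in the mice, lower with GW3965 in mouse 1 and higher in mouse 2. Coq3, of ubiquinone synthesis, was at 27.8 and 12.5 CPM with GW3965, against 18.2 and 14.4 CPM with DMSO (0.30 ± 0.33). Of the assembly factors of complex IV, Cox16 was at 39.4 and 23.7 CPM with GW3965, against 24.2 and 26.2 CPM with DMSO (0.32 ± 0.25), and Pet117 at 0 and 1.73 CPM with GW3965, against 2.93 and 1.43 CPM with DMSO. Coq3 and Cox16 were higher with GW3965 in mouse 1 and lower in mouse 2. Mrps5 and Mrps2, of the small mitochondrial ribosomal subunit, had log2 fold changes of -0.27 ± 0.19 and -0.22 ± 0.19, with log2 differences of -0.43 and -0.26 in mouse 1 and -0.10 and -0.17 in mouse 2. All of these had an edgeR adjusted p of 0.9999.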

How the data were processed

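Poly-A RNA was prepared with a strand-keeping kit and read from 1 end over 50 bases, per the labels' protocols, whose extraction text speaks of colon while the tissue label names small-intestine organoids. The submitters' processing notes name kallisto, CASAVA 1.7, FastQC and mm10; the annotation release and use of strand are not named in those notes or in any other source used here. The deposited values are, per the file headers, an estimated count and a TPM for each transcript, with transcript and effective lengths (other values, in bases), and the authors added a series-wide table of the same counts rounded, and log2 CPM for 8524 symbols, whose filter and scaling are not stated in the sources used here.

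Of 88198 transcripts 86119 (97.6%) matched GENCODE M21; unmatched ones, 0.685% to 0.854% of a library, were left out. Estimated counts were summed per gene, rounded and tested in R 4.3.3 by the quasi-likelihood test of edgeR 4.0.16 (filter by filterByExpr, TMM scaling, no block, 2 residual degrees of freedom; DESeq2 1.42.0 as an alternative), adjusted over all 13602 genes. The design had assumed gene counts, which the files hold per transcript. Normalised CPM use TMM-scaled library sizes; log2 differences within a mouse add 0.5 counts, and standard errors come from the F statistic. Levels of different genes are ranked per length (TPM, or CPM per kilobase). Shares and ratios of counts, within gene pairs or between the genomes, do not take length into account. The labels tie libraries of 1 number to 1 mouse, which pairs them; their deviations from the group means correlated at 0.061, and the blocked fit has 1 residual degree of freedom and an infinite prior. Replicates are cultures of 2 mice. Every pair of libraries differed by more than sampling noise. On simulated counts for GW3965 against DMSO with 13602 genes, 52% of 100 genes changed 2-fold and 93% of 100 changed 4-fold were recovered, with 22 false calls. The simulation drew each gene independently and set no library apart, unlike these data. Its rates therefore do not carry over to sets of genes that shift together in 1 library. Intervals and floors of 3 counts cover counting error only.

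The members, the lists and the rule for named genes (all mitochondrial genes, the most and least abundant nuclear genes of each complex, those with the largest changes or smallest p, paralogs, genes not tested, and 2 per pathway list) were chosen with earlier results of these data known. Malat1, Neat1, mt-Rnr1 and mt-Rnr2 were listed too, but no entry under these symbols was found among the matched genes, so they were not analysed here. Alternatives were other scalings, no filter, DESeq2, a block by mouse, the series-wide table, other length treatments and each library left out. The result of 1 gene is not reported here.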

Additional observations from a re-analysis of the deposited data

How the results depend on the processing

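The count of called genes of oxidative phosphorylation was 0 under every alternative run except the fits that leave out 1 library, where it ranged from 0 to 2; the 2 came without the GW3965 library of mouse 2. Over all genes the 8 calls became 13 with no scaling beyond the total count, 14 without a filter on low counts, 20 with DESeq2 and 48 with the mouse as a replicate block, and ranged from 38 to 84 when 1 library was left out. The block changed no call among the genes of oxidative phosphorylation and ended none of the 8. DESeq2 with the block called 11; this fit and the authors' log2 CPM were chosen as alternatives after seeing the data. The median log2 fold change of the 13 mitochondrial genes was 0.41 to 0.44 under the other scalings, tests and blocks, 0.23 in the authors' deposited log2 CPM, and 0.08 to 0.74 with 1 library left out. That of the nuclear genes was 0.06 to 0.10 in the same fits, 0.01 in the authors' log2 CPM, and -0.13 to 0.28 with 1 library left out, the only setting that turned it. Scaling from nuclear-genome genes alone left the medians at 0.44 and 0.10. The difference in mitochondrial share was 2.80 to 3.50 percentage points under the other measures and 0.225 to 5.50 with 1 library left out, and the difference in log2 ratio was 0.34 to 0.40 and 0.19 to 0.59. The means of within-mouse differences, 2.86 and 0.39, equal the main differences by construction, as each mouse had 1 library per treatment. They are no separate check. Fits without 1 library assume that the lone library varies like the other group. Of 552 refitted values of 46 named genes, 33 changed sign, 22 of them without the GW3965 library of mouse 1; the cause was not tested. Depth limits the paralogs at a few counts per library, and every comparison rests on 2 libraries per group.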
